A study of Mus musculus with 9 samples.

Results

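The genes described are Mtor, which encodes the kinase of both mTOR complexes, and 3 genes that supply cells with amino acids: Pycr1, the mitochondrial enzyme that makes proline, Psat1, the second enzyme of serine synthesis, and Slc7a11, the light chain of the cystine/glutamate exchanger. They were taken by symbol from the count table. All 4 were found among its 14052 genes, and all 4 were among the 7020 genes that passed the filter on low counts. RNA was sequenced from 9 areas of kidney taken at an age of about 1 year. Of these, 5 are tumour areas (L4, R2, R3, R4, R5) of the genotype VhlF/FPbrm1F/FKsp-Cre. In it both alleles of Vhl and of Pbrm1 are floxed, and Cre is driven by the Ksp (Cdh16) promoter of tubule epithelium. Cells in which this promoter was never active keep both genes, and which cells lost them was not measured. The normal group holds 4 cortex areas (L1, L2, R1, R2) that are wild-type at these genes. Tumour mice had a mixed background of C57BL/6, BALB/c and 129 and wild-type mice that of C57BL/6, so strain and group cannot be told apart. The descriptions of each group carry a single number, which may be that of 1 animal, in which case p-values measure only how areas of that animal vary.

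The mTOR kinase joins nutrient and growth factor signals to cell growth. Within the complex mTORC1 it is switched on at the lysosome when amino acids are plentiful, and it then favours protein synthesis through the S6 kinases and the 4E-BP proteins. It also favours synthesis of ATF4, a transcription factor that responds to amino acid shortage and switches on genes for making serine, proline and asparagine and for taking up cystine. In the kidney, the proximal tubule recovers amino acids from the filtrate. Transcript counts measure RNA, not the activity of a kinase or a carrier.

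The sequence just before the start site is shown for each of the 4 genes because ATF4 is known to bind a short element, TGATGNAA, and Pycr1, Psat1 and Slc7a11 are known ATF4 targets. Each sequence is the 250 bases before a RefSeq start site in the build GRCm38.p6, written 5′ to 3′ on the strand of the gene, and capitals mark each match to TGATGNAA on either strand. The position is chr11:120643749-120643998 on the minus strand for Pycr1, chr3:50443614-50443863 on the minus strand for Slc7a11, chr19:15925060-15925309 on the minus strand for Psat1 and chr4:148448332-148448581 on the plus strand for Mtor.
Pycr1: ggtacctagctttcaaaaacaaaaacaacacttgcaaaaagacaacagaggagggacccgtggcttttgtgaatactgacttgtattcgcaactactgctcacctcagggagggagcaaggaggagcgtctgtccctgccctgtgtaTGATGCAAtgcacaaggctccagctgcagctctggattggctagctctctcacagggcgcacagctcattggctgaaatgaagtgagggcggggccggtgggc
Slc7a11: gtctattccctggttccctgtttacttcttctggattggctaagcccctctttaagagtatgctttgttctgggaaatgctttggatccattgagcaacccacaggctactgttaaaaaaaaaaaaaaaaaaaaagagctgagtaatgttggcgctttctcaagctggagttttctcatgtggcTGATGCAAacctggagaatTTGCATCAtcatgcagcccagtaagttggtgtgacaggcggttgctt
Psat1: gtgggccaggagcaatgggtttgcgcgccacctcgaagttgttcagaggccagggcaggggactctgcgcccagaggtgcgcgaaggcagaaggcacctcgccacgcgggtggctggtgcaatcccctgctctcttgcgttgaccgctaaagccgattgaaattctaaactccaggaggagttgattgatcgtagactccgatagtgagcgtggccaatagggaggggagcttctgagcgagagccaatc
Mtor: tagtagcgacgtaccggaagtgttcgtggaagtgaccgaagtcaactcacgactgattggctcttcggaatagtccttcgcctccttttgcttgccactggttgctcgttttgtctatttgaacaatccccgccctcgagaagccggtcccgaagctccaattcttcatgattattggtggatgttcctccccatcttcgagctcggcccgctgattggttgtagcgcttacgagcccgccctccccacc

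Pycr1 held 1 match, from base 103 to base 96 before its start. Slc7a11 held 2 matches on opposite strands, from base 66 to base 59 and from base 47 to base 40. The windows of Mtor and of both RefSeq start sites of Psat1 held none. Of 32851 windows of the same length, 1134 (3.45%) held at least 1 match and 13 (0.0396%) held at least 2. The motif TGACNNNGC, a core of the antioxidant response element that the factor NRF2 binds, was also searched on both strands and was in none of the 4 genes' windows, against 10.2% of all windows. A match describes letters in a short window and does not show that a factor bound there.

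Pycr1 and Slc7a11 rose in the tumour areas, and Mtor and Psat1 fell. In CPM (counts-per-million, a gene's share of a library's reads after scaling of the libraries), Pycr1 rose from 0.512 ± 0.297 (SD, n = 4) to 25.1 ± 9.38 (SD, n = 5) and Slc7a11 from 0.416 ± 0.146 to 18.1 ± 4.84. Mtor fell from 576 ± 12.6 to 285 ± 51.6 CPM and Psat1 from 13.02 ± 1.03 to 8.63 ± 1.61 CPM. All 4 genes were called by edgeR's quasi-likelihood test over 7020 genes, at a Benjamini-Hochberg adjusted p under 0.05, and for each the tumour areas lay wholly on one side of the normal areas. The same test called 74.6% of all genes, 39.3% higher and 35.3% lower, and the tumour areas were all above the normal areas in 34.8% of genes and all below in 33%. A call or a gap between the groups was thus common, and the median log2 fold change of all genes was 0.059. A larger increase than that of Pycr1 was seen in 0.641% of genes and a larger one than that of Slc7a11 in 0.798%, whereas 12.3% had a larger decrease than Mtor and 22.8% than Psat1.

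**Figure D1:**
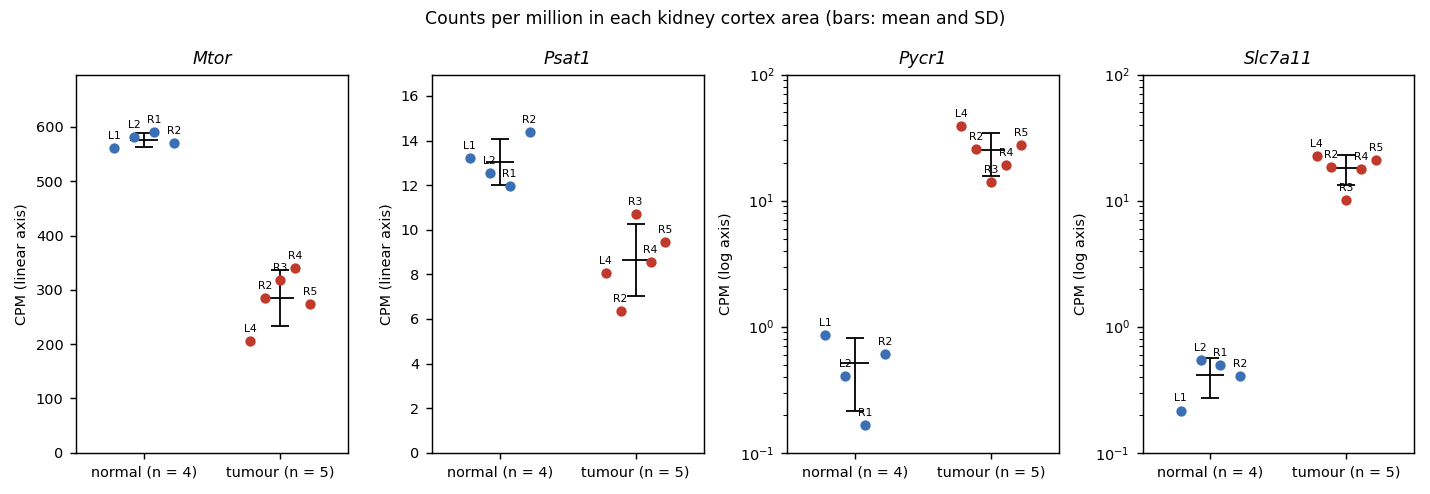
CPM of Mtor, Psat1, Pycr1 and Slc7a11 in each area, with the mean and SD of each group, on linear axes from 0 for Mtor and Psat1 and on log axes for Pycr1 and Slc7a11. Mtor sits between 205 and 340.4 CPM in tumour and between 562 and 590.3 CPM in normal areas, and Pycr1 between 13.98 and 38.8 CPM against at most 0.865 CPM.

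Depth bears on the low genes. Libraries held 5143527 to 8250261 counted reads, and a count of 0 allows up to 3 counts, or 0.409 to 0.649 CPM, for counting error only. Of all genes, 3989 (28.4%) had no count in any area, among them Gpx4, which nearly every cell expresses, so a gene listed at 0 cannot be read as silent. As a check of the genotype, Vhl fell from 104 to 60.0 CPM (log2 -0.79 ± 0.13, adjusted p = 0.000248 in edgeR), where log2 marks a fold change of tumour over normal with its standard error, here and throughout. Pbrm1 did not pass (log2 -0.19 ± 0.11, adjusted p = 0.142 in edgeR). A gene's count can include exons outside a deleted part.

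Mtor (ENSMUSG00000028991) stood at 205 CPM in tumour L4, 285 in R2, 319 in R3, 340.4 in R4 and 273 in R5. In the normal areas it stood at 562 CPM in L1, 582 in L2, 590.3 in R1 and 570.3 in R2. The highest tumour area, R4, was 1.65-fold below the lowest normal area, and L4 was the lowest of all. The normal areas differed by at most 1.05-fold among themselves and the tumour areas by 1.66-fold. By the edgeR fit Mtor fell 2.03-fold (log2 -1.02 ± 0.12, adjusted p = 2.72e-05), on 1476 to 2344 reads per tumour area and 2597 to 4268 per normal area. In bulk tissue, fewer cells of a type and less RNA per cell cannot be told apart.

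Most other genes of the mTOR complexes fell too. Of the 7 tested genes in this list of subunits and assembly factors, Mtor included, 6 (85.7%) fell and 0 rose. Over all genes 35.3% fell and 39.3% rose. The median log2 fold change of the list was -0.73, and the calls of Mapkap1 and Tti1 depended on the processing, as given below. Rictor, the scaffold that defines mTORC2, stood at 82.1, 94.1, 78.8, 94.4 and 88.6 CPM in tumour L4, R2, R3, R4 and R5 and at 177, 171, 154 and 175 CPM in normal L1, L2, R1 and R2. The Rictor groups did not overlap (log2 -0.95 ± 0.07, adjusted p = 8.97e-07 in edgeR). Deptor, an inhibitor bound to both complexes, fell from 648 ± 12.9 to 333 ± 44.9 CPM (log2 -0.96 ± 0.09), and Mlst8, the small subunit of both complexes, fell from 74.4 ± 1.66 to 51.3 ± 3.39 CPM (log2 -0.53 ± 0.06). Counts of Mtor per 100 counts of Rictor, a ratio that no scaling of libraries touches, ran from 250.2 to 404 in tumour and from 318 to 384 in normal areas, so this ratio overlapped between the groups.

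The remaining genes of the list had low counts. Mapkap1, the SIN1 subunit of mTORC2, fell from 5.83 ± 0.506 to 3.75 ± 0.923 CPM (log2 -0.64 ± 0.19), a call lost with library size alone, within the R areas and with L4 and R5 left out. Tti1, of the complex that assembles mTOR, fell from 4.77 to 2.89 CPM (log2 -0.73 ± 0.25) with overlapping groups. Its call was lost with library size alone, with L4 and R5 left out, and without normal L2, R1 or R2, and over all alternatives its adjusted p ran from 0.00546 to 0.134 in edgeR and the other tools. Tti2, its partner, stood at 11.1 ± 1.13 CPM in tumour and 9.91 ± 2.57 CPM in normal areas and did not pass (log2 0.16 ± 0.17, adjusted p = 0.41), but was called higher with library size alone (0.46) and read lower within the R areas (-0.17). Rptor, the scaffold of mTORC1, and Akt1s1, its inhibitor PRAS40, were listed at 0 in all 9 areas, so the scaffold of mTORC1 could not be compared.

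Signals that reach mTOR from growth factors and energy sensors were mixed. Of 25 tested genes, 9 (36%) rose and 13 (52%) fell, against 39.3% and 35.3% of all genes. The median log2 fold change was -0.26. Insr, the insulin receptor, fell from 578 to 278 CPM (log2 -1.06 ± 0.07), Igf1r, the IGF1 receptor, from 272 to 147 CPM (log2 -0.88 ± 0.15), and Irs2, an insulin receptor substrate, from 5.64 to 1.83 CPM (log2 -1.57 ± 0.34). The phosphoinositide 3-kinase genes Pik3cg and Pik3cd, which are mainly expressed in leukocytes, rose from 3.17 to 43.1 CPM (log2 3.74 ± 0.27) and from 1.02 to 6.71 CPM (log2 2.63 ± 0.35). Akt1, the kinase below them, rose from 184 to 290.4 CPM (log2 0.66 ± 0.08).

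Tsc1 and Tsc2 of the TSC complex, which switches off the GTPase Rheb, fell slightly. Tsc1 fell from 116 to 82.9 CPM (log2 -0.49 ± 0.06). Tsc2 fell from 139 to 109 CPM (log2 -0.35 ± 0.05), without a call under library size alone. Tbc1d7, another gene of the complex, was higher in every tumour area than in any normal area. Its log2 CPM relative to the normal mean ran from 0.65 to 0.88 in tumour and from -0.35 to 0.20 in normal areas. Rheb itself stood at 101 ± 5.53 CPM in tumour and 103 ± 2.60 CPM in normal areas and did not pass (log2 -0.029 ± 0.05, adjusted p = 0.626), and was called higher under library size alone (0.26). Rhebl1, its close relative, rose from 1.72 to 5.83 CPM (log2 1.73 ± 0.23). Of the AMP-activated kinase, which senses low energy and restrains mTORC1, the catalytic gene Prkaa2 fell from 1724 ± 59.2 to 559.8 ± 133 CPM (log2 -1.62 ± 0.15). The regulatory gene Prkag2 fell from 2.71 to 1.13 CPM (log2 -1.28 ± 0.39), a call lost within the R areas. Prkaa1, the other catalytic gene, fell as well (log2 -0.51 ± 0.04). The regulatory genes Prkab2 (log2 1.17 ± 0.19), Prkab1 (log2 0.36 ± 0.06) and Prkag1 (log2 0.19 ± 0.06) were called higher, Prkag1 with overlapping groups. Genes of this kinase thus moved in both directions.

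Among 20 tested genes that report amino acids to mTORC1 at the lysosome, 6 (30%) rose and 7 (35%) fell. Over all genes 39.3% rose and 35.3% fell. The median log2 fold change was 0.0070. With library size alone 10 were called higher and 4 lower. Lars, leucyl-tRNA synthetase and a leucine sensor, rose from 36.8 ± 0.564 to 67.4 ± 4.92 CPM (log2 0.87 ± 0.07). Rragb, a Rag GTPase, rose from 1.83 to 3.42 CPM (log2 0.88 ± 0.22), a call lost within the R areas. Lamtor1, an anchor of the Ragulator complex, rose from 207 to 310.2 CPM (log2 0.58 ± 0.06). Of the same complex, Lamtor3 fell (log2 -0.31 ± 0.05) and Lamtor5 did not pass (log2 0.034 ± 0.08, adjusted p = 0.722 in edgeR). Castor2, of the arginine sensor family, fell from 1233 ± 26.3 to 640.1 ± 87.7 CPM (log2 -0.95 ± 0.10). Castor1, of the same family, rose from 14.2 to 18.4 CPM (log2 0.37 ± 0.12). Of the sestrins, Sesn3 fell from 23.8 to 9.22 CPM (log2 -1.36 ± 0.16) and Sesn1 rose from 42.8 to 65.5 CPM (log2 0.61 ± 0.13). Sesn2, a leucine sensor and ATF4 target, stood at 184 ± 23.7 CPM in tumour and 193 ± 1.99 CPM in normal areas and did not pass (log2 -0.068 ± 0.09, adjusted p = 0.499), and was called higher under library size alone (0.22).

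Among 18 tested substrates and effectors 7 (38.9%) rose and 8 (44.4%) fell, against 39.3% and 35.3% of all genes. The median log2 fold change was -0.082. Eif4ebp1, the translation repressor 4E-BP1 that mTORC1 inactivates, rose from 20.3 ± 2.24 to 79.1 ± 26.98 CPM (log2 1.96 ± 0.23), while its relative Eif4ebp2 fell from 127 to 53.8 CPM (log2 -1.24 ± 0.08). Rps6kb1, the S6 kinase S6K1, rose from 62.4 ± 3.68 to 73.98 ± 3.24 CPM (log2 0.25 ± 0.06). Srebf1, a lipogenic transcription factor, rose from 36.8 to 94.4 CPM (log2 1.36 ± 0.11), and Rps6ka1, an RSK kinase, from 0.999 to 3.06 CPM (log2 1.59 ± 0.27). Lpin1, a phosphatidate phosphatase that mTORC1 phosphorylates, fell from 866 to 293 CPM (log2 -1.57 ± 0.07). Rps6, the ribosomal protein that S6 kinase phosphorylates, fell from 10.6 to 4.27 CPM (log2 -1.31 ± 0.16). Ribosomal protein genes are known to have pseudogene copies, which were not searched for here.

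**Figure D2:**
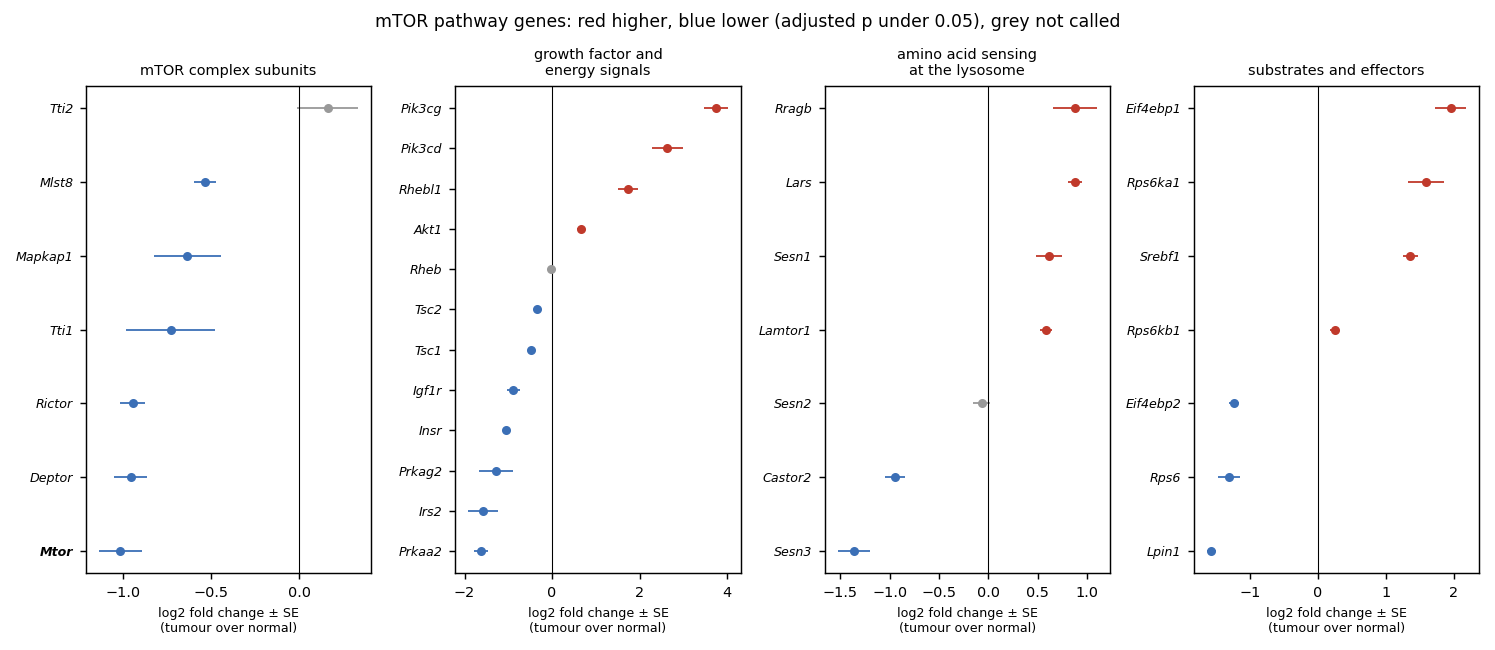
Log2 fold change (tumour over normal) with its standard error for most of the genes described here from 4 lists around mTOR, coloured by call at an adjusted p under 0.05. The called genes of the mTOR complexes lie to the left of 0, from Mtor at -1.02 to Mlst8 at -0.53, and Tti2 to its right. The other panels spread to both sides.

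Pycr1 (ENSMUSG00000025140) was near the limit of detection in normal cortex. It held 4, 3, 1 and 3 reads in normal L1, L2, R1 and R2, which is 0.865, 0.409, 0.166 and 0.607 CPM. In tumour L4, R2, R3, R4 and R5 it held 279, 153, 77, 133 and 181 reads, or 38.8, 25.7, 13.98, 19.3 and 27.5 CPM. The lowest tumour area, R3, was 16.2-fold above the highest normal area, and L4 was the highest of the tumour areas. Pycr1 rose by 5.64 ± 0.44 on the log2 scale (adjusted p = 1.44e-06 in edgeR). Since the normal group held 11 reads in all, the pooled ratio of 53.4 has a 95% exact interval of 29.7 to 107, which covers counting error only. A Pycr1 transcript resembles short stretches of 57 other annotated genes, the longest 128 bases at 91.4% identity, so some reads could be shared.

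Aldh18a1, which makes the glutamate semialdehyde used for proline, stood at 84.8, 93.3, 63.4, 69.6 and 65.3 CPM in tumour L4, R2, R3, R4 and R5 and at 6.27, 6.82, 6.98 and 6.07 CPM in normal L1, L2, R1 and R2. It was thus higher in every tumour area than in any normal area (log2 3.52 ± 0.15, adjusted p = 3.97e-08 in edgeR). Prodh and Aldh4a1, which break proline down, fell from 196 to 130.1 CPM (log2 -0.59 ± 0.14) and from 534 to 305 CPM (log2 -0.81 ± 0.13), and Prodh2, the hydroxyproline dehydrogenase, from 9.63 to 3.50 CPM (log2 -1.46 ± 0.35). Pycrl, the cytosolic relative of Pycr1, fell from 102 to 77.6 CPM (log2 -0.40 ± 0.08), and lost its call with library size alone.

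In the whole list of proline and ornithine metabolism 3 of 11 tested genes (27.3%) rose and 6 (54.5%) fell. Over all genes 39.3% rose and 35.3% fell. The median log2 fold change of the list was -0.40. Arg2, the mitochondrial arginase that yields ornithine, was the other gene to rise; it rose from 9.16 ± 1.32 to 50.3 ± 16.1 CPM (log2 2.46 ± 0.25). Odc1, which turns ornithine into polyamines, fell from 2212 ± 136 to 1059 ± 255 CPM (log2 -1.06 ± 0.16). Ass1, of arginine synthesis, fell from 213 to 115 CPM (log2 -0.89 ± 0.17). Oat, which links ornithine with proline, stood at 265 ± 69.9 CPM in tumour and 324 ± 16.7 CPM in normal areas and did not pass (log2 -0.29 ± 0.18, adjusted p = 0.17).

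Psat1 (ENSMUSG00000024640) changed least of the 4 genes. It stood at 8.07, 6.38, 10.7, 8.57 and 9.44 CPM in tumour L4, R2, R3, R4 and R5 and at 13.2, 12.5, 11.96 and 14.4 CPM in normal L1, L2, R1 and R2. The groups came within 1.12-fold of each other, between tumour R3 and normal R1, and tumour R2 was the lowest area. Psat1 fell 1.51-fold (log2 -0.59 ± 0.15, adjusted p = 0.00453 in edgeR), on 38 to 62 reads per tumour area and 61 to 92 per normal area. With libraries scaled by size alone the value was -0.30 and not called (adjusted p = 0.0803), and over all alternatives the adjusted p ran from 0.000707 to 0.0803. One annotated gene, Gm12611, matches 1056 bases of a Psat1 transcript at 91.0% identity, so some reads could be shared.

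Phgdh, of the step before Psat1, and Shmt2, which uses finished serine, both rose. Phgdh, which starts serine synthesis, stood at 24.9, 19.97, 11.98, 11.04 and 18.3 CPM in tumour L4, R2, R3, R4 and R5 and at 5.41, 6.96, 7.64 and 5.47 CPM in normal L1, L2, R1 and R2. Its groups did not overlap (log2 1.42 ± 0.26, adjusted p = 0.000552 in edgeR). Counts of Psat1 per 100 counts of Phgdh ran from 31.9 to 89.4 in tumour and from 157 to 263 in normal areas, without overlap and with no dependence on scaling. Shmt2, which turns serine into glycine in mitochondria, rose from 513 ± 16.1 to 909 ± 194 CPM (log2 0.82 ± 0.14). Aldh1l2 and Mthfd1l, mitochondrial enzymes of the folate cycle, rose from 3.20 to 25.4 CPM (log2 2.998 ± 0.16) and from 1.15 to 3.54 CPM (log2 1.54 ± 0.29). Psph, Shmt1 and Mthfd2 were not analysed here.

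Of 19 tested genes of serine, glycine and one-carbon metabolism 6 (31.6%) rose and 10 (52.6%) fell. Over all genes 39.3% rose and 35.3% fell. The median log2 fold change of the list was -0.47. Gldc, which cleaves glycine, fell from 775 ± 49.5 to 88.6 ± 38.6 CPM (log2 -3.13 ± 0.33). Slc25a32, the mitochondrial folate carrier, fell from 78.999 to 30.9 CPM (log2 -1.35 ± 0.09).

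Slc7a11 (ENSMUSG00000027737) was also near the limit of detection in normal cortex. It held 1, 4, 3 and 2 reads in normal L1, L2, R1 and R2, which is 0.216, 0.546, 0.498 and 0.405 CPM. In tumour L4, R2, R3, R4 and R5 it held 163, 111, 56, 122 and 139 reads, or 22.7, 18.6, 10.2, 17.7 and 21.2 CPM. Every tumour area was at least 18.6-fold above every normal area. Slc7a11 rose by 5.32 ± 0.34 on the log2 scale (adjusted p = 4.46e-07 in edgeR), and the pooled ratio over 10 normal reads was 42.2, with a 95% exact interval of 22.8 to 88.4 for counting error only. A Slc7a11 transcript resembles stretches of 15 other annotated genes. The longest is 585 bases at 92.5% identity, with the tubulin gene Tuba1b, so some reads could be shared.

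Slc3a2, the heavy chain that brings the exchanger to the membrane, stood at 405 ± 51.4 CPM in tumour and 407 ± 19.4 CPM in normal areas and did not pass (log2 -0.0092 ± 0.09, adjusted p = 0.931), but was called higher under library size alone (0.29). Counts of Slc7a11 per 100 counts of Slc3a2 ran from 2.89 to 5.05 in tumour and from 0.0561 to 0.134 in normal areas. Slc3a1, the heavy chain of the renal cystine carrier, fell from 1346 ± 43.8 to 996 ± 210.1 CPM (log2 -0.43 ± 0.14), without a call under library size alone or within the R areas. Slc7a13, a light chain of the straight proximal tubule, fell from 2304 ± 95.1 to 667 ± 302 CPM (log2 -1.79 ± 0.33).

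Of 18 tested genes of cystine and glutathione handling 4 (22.2%) rose and 9 (50%) fell, against 39.3% and 35.3% of all genes. The median log2 fold change was -0.42. With library size alone 7 were called higher and 5 lower. Gclc, the catalytic subunit that starts glutathione synthesis, fell from 1558 to 866 CPM (log2 -0.85 ± 0.15), Dpep1, which splits cysteinylglycine, from 359 to 128 CPM (log2 -1.49 ± 0.10) and Txnrd1, thioredoxin reductase, from 1049.97 to 437 CPM (log2 -1.27 ± 0.10). Cth, which makes cysteine, fell from 28.5 to 20.6 CPM (log2 -0.47 ± 0.15) and lost its call with library size alone, within the R areas and with L4 and R5 left out. Cbs, the enzyme before it, stood at 7.01 ± 2.88 CPM in tumour and 10.5 ± 0.861 CPM in normal areas and did not pass (log2 -0.59 ± 0.26, adjusted p = 0.0626), but was called lower in 4 of 20 alternatives. Csad and Cdo1, which turn cysteine towards taurine, rose from 496 to 1154 CPM (log2 1.22 ± 0.14) and from 470.3 to 635 CPM (log2 0.43 ± 0.10). Gpx8, a peroxidase of the endoplasmic reticulum, rose from 25.3 to 39.4 CPM (log2 0.64 ± 0.26), and this call was lost in 10 of 20 alternatives, with a value of 0.37 without tumour L4.

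Of other known NRF2 targets, Nqo1 fell from 279.7 to 117 CPM (log2 -1.26 ± 0.21). Hmox1 stood at 107 ± 2.39 CPM in tumour and 100.4 ± 4.13 CPM in normal areas and did not pass (log2 0.095 ± 0.05, adjusted p = 0.0854), although it was called higher with upper quartile factors (0.16) and with library size alone (0.39). Keap1, which holds NRF2 back, stood at 20.97 ± 3.84 CPM in tumour and 19.4 ± 2.41 CPM in normal areas and did not pass (log2 0.11 ± 0.15, adjusted p = 0.525), and was called higher with library size alone (0.40) and with L4 and R5 left out (0.29). Nfe2l2, which encodes NRF2, and Gclm were not analysed here.

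Among 27 tested amino acid carriers, Slc7a11 included, 7 (25.9%) rose and 12 (44.4%) fell, against 39.3% and 35.3% of all genes. The median log2 fold change was -0.23. Slc7a5, the leucine carrier LAT1 that also pairs with Slc3a2, rose from 13.2 ± 1.64 to 100.02 ± 33.4 CPM (log2 2.93 ± 0.25). Slc38a1, a glutamine carrier, rose from 26.5 to 69.7 CPM (log2 1.40 ± 0.17). Slc1a3, a glutamate carrier, rose from 2.80 to 10.8 CPM (log2 1.97 ± 0.62) with overlapping groups. This value was 1.38 without L4 and 0.76 without L4 and R5, and the call was lost in 2 of 20 alternatives. Slc7a8, the LAT2 carrier, fell from 643 to 215 CPM (log2 -1.58 ± 0.13), and Slc16a10, a carrier of aromatic amino acids, from 273 to 105 CPM (log2 -1.38 ± 0.09).

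**Figure D3:**
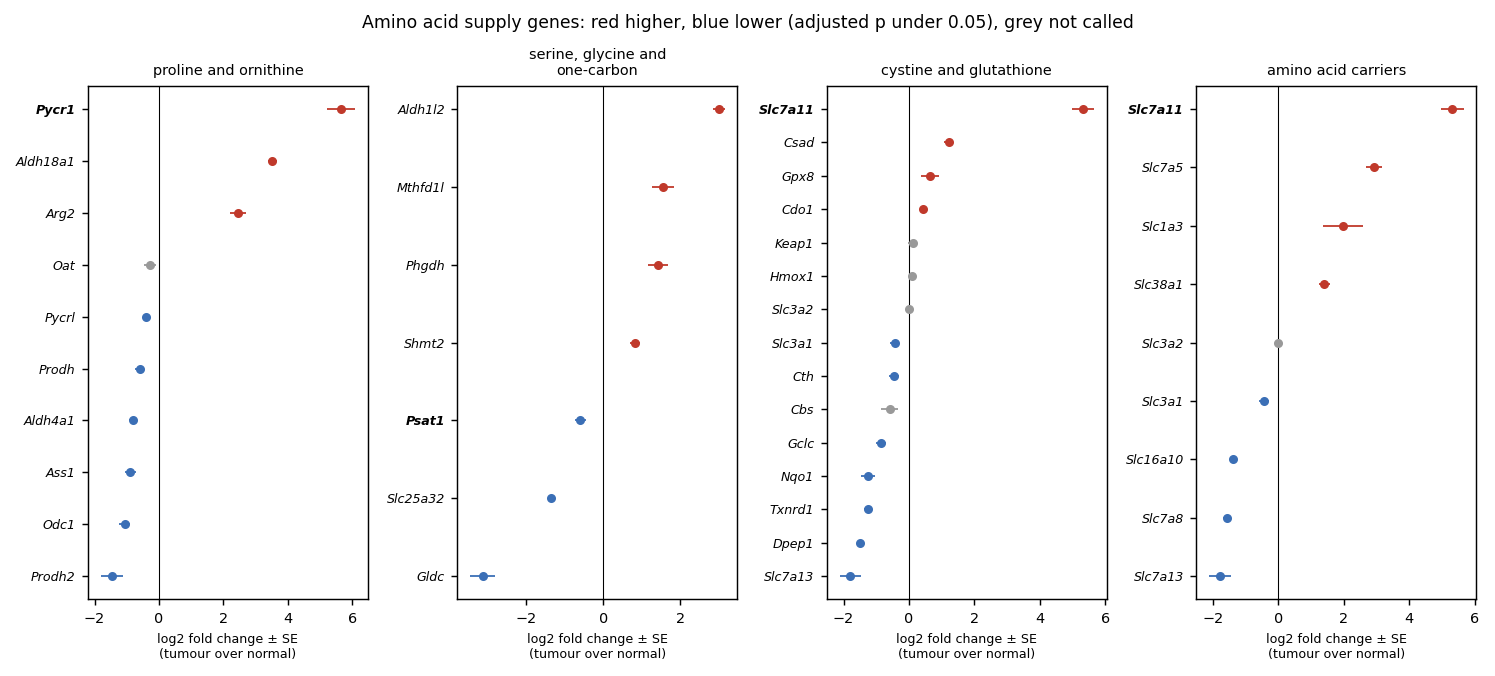
Log2 fold change (tumour over normal) with its standard error for the genes described here from 4 lists of amino acid supply, coloured by call at an adjusted p under 0.05. Pycr1 at 5.64 and Slc7a11 at 5.32 stand far to the right of 0, and Psat1 at -0.59 lies to its left while Phgdh at 1.42 and Shmt2 at 0.82 lie to its right.

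The list of ATF4, its activating kinases and its known targets held 12 higher (57.1%) and 4 lower (19.05%) genes of 21 tested. Among all tested genes 39.3% were called higher and 35.3% lower. This list had a median log2 fold change of 0.57, against 0.059 over all genes. Pycr1 and Slc7a11 had the highest values of this list. Asns, asparagine synthetase, stood at 30.8, 34.1, 21.2, 23.8 and 22.2 CPM in tumour L4, R2, R3, R4 and R5 and at 1.95, 3.0004, 2.99 and 2.23 CPM in normal L1, L2, R1 and R2. Its groups did not overlap (log2 3.34 ± 0.21, adjusted p = 4.13e-07 in edgeR). Atf3, a stress-induced factor, rose from 4.95 to 31.7 CPM (log2 2.69 ± 0.24). The genes that fell besides Psat1 were Xpot, a tRNA export factor (log2 -0.93 ± 0.06), Vldlr, a lipoprotein receptor (log2 -0.87 ± 0.08), and the kinase gene Eif2ak1 (log2 -0.26 ± 0.05). Atf4, Ddit3 and Trib3 were not analysed here.

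The TGATGNAA motif was found in 5 of the 18 genes of this list that had a promoter window (27.8%), which were Pycr1, Slc7a11, Asns, Atf3 and Vldlr. Of these 5 genes 4 rose and Vldlr fell. Among all 5427 tested genes with a window, 2.32% held a match, and the share was 2.72% of genes called higher and 2.27% of genes called lower. The list was drawn up from known ATF4 targets, so its share describes the list.

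Within the tumour group the 4 genes did not share an order of areas. Pycr1 and Slc7a11 were both highest in L4, then R5, R2, R4 and R3, an order that Slc7a5 had too. For Slc7a11, L4 and R5 (163 and 139 reads) differed within counting error, as did R2 and R4 (111 and 122 reads). Aldh18a1 and Asns were both highest in R2, then L4, R4, R5 and R3. Among R4, R5 and R3, Aldh18a1 (479, 429 and 349 reads) and Asns (164, 146 and 117 reads) differed within counting error too. Mtor ran from R4, the highest, through R3, R2 and R5 to L4, and Psat1 from R3 through R5, R4 and L4 to R2. The coefficient of variation over tumour areas was 18.1% for Mtor, 18.7% for Psat1, 26.8% for Slc7a11 and 37.4% for Pycr1.

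Summed marker levels of other cells differed between these areas. Counts of called markers stand beside 39.3% of all genes called higher and 35.3% called lower. The sum of 11 proximal tubule markers, all of them lower in tumour, was 34109 to 36313 CPM in the normal areas. In tumour it was 9842 CPM in L4, 12957 in R2, 17217 in R3, 19028 in R4 and 15176 in R5, so that L4 was lowest and R4 highest, as for Mtor. The straight part of the proximal tubule was mixed, with 1 of 5 tested markers higher, 2 lower and 2 not called. Slc22a13, a transporter, rose from 94.2 to 204 CPM (log2 1.11 ± 0.25), while Slc7a13 fell as given above. Its sum was 659 to 1392 CPM in tumour and 2461 to 2788 CPM in normal areas, lowest in R2 and highest in R3.

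The area order of Psat1, from R3 through R5, R4 and L4 to R2, was also that of the collecting duct markers, all 6 of 6 tested lower. These summed to 278 CPM in R3, 268 in R5, 252 in R4, 232 in L4 and 60.4 in R2, against 834 to 910.2 CPM in normal areas. Psat1 held 59, 62, 59 and 58 reads in R3, R5, R4 and L4 and 38 in R2. Its order among R3, R5, R4 and L4 thus lies within counting error. The orders of all the marker lists were looked at, and the match was not tested. Markers of the thick ascending limb and distal tubule, 4 of 5 tested lower and Cldn16, Pvalb and Wnk4 listed at 0, were lowest in R2 and highest in R3 too, at 1501 and 6713 CPM against 10146 to 10402 CPM in normal areas.

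Leukocyte markers, of which 9 of 11 were analysed and 6 of 6 tested rose, summed to 45.7 to 49.2 CPM in normal areas. In tumour they summed to 795 CPM in L4, 510.1 in R2, 409.6 in R3, 358 in R4 and 608 in R5, so that L4 and R5 were highest, as for Pycr1 and Slc7a11. Most of this sum came from 1 gene, Laptm5, at 607 of the 795 CPM in L4. Ptprc, a defining leukocyte gene, was listed at 0 in all areas. L4 and then R5 were highest for other lists as well. Macrophage markers, 7 of 8 tested higher, summed to 1975 CPM in L4 and 1370.4 in R5, against 799 to 1098 CPM in the remaining tumour areas and 83.9 to 109 CPM in normal areas. The gene Lyz2 alone stood at 1813 CPM in L4. Fibroblast markers, 5 of 7 tested higher and 2 lower, summed to 2928 CPM in L4 and 1906 in R5, against 942 to 1299.7 CPM and 223 to 246 CPM. Fat markers, 3 of 6 analysed and 1 tested but not called, summed to 178 CPM in L4 and 71.8 in R5, against 0.336 to 3.78 CPM and 1.62 to 6.68 CPM. Endothelial markers, 5 of 6 tested lower, summed to 758 to 894 CPM in tumour and 1446 to 1481 CPM in normal areas. The 5 tested markers of dividing cells all rose, and the 9 analysed summed to 11.54 to 13.2 CPM in normal and 95.3 to 148 CPM in tumour areas. The part of these cells in the changes of the 4 genes was not tested.

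L4 and R5 also carried urothelial markers, at 1065 and 187 CPM. These summed to 12.1 to 51.9 CPM in R2, R3 and R4 and to 0.332 to 3.68 CPM in normal cortex. With both areas left out the log2 fold change was -0.86 for Mtor, -0.59 for Psat1, 5.31 for Pycr1 and 5.11 for Slc7a11, and each was still called.

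**Figure D4:**
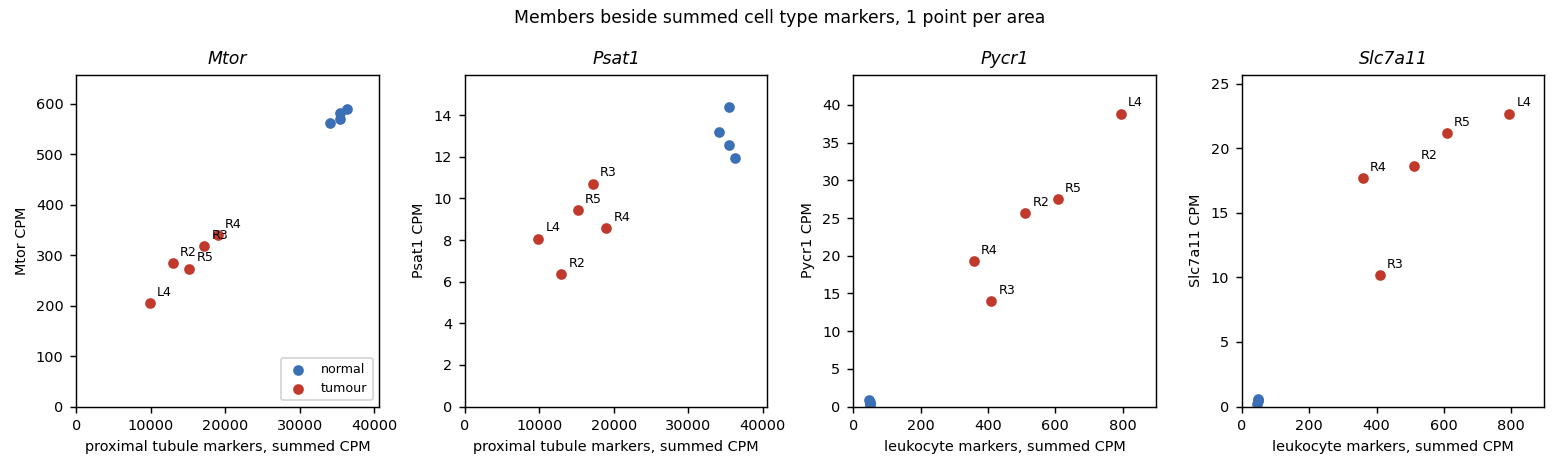
CPM of Mtor and Psat1 against the summed CPM of proximal tubule markers, and of Pycr1 and Slc7a11 against that of leukocyte markers, with 1 point per area. Among tumour areas L4 has the lowest Mtor (205 CPM) with the lowest proximal tubule sum (9842 CPM) and the highest Pycr1 (38.8 CPM) with the highest leukocyte sum (795 CPM), while Psat1 is lowest in R2, which has the second lowest proximal tubule sum (12957 CPM).

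The genes whose pattern over the 9 areas was most like each of the 4 were found by the root mean square difference in log2 CPM, each gene being centred on the midpoint of its group means. For Mtor these were Vdr, the vitamin D receptor, at 0.0320, Trabd2b at 0.0451 and Pgpep1 at 0.0489. For Psat1 they were Mras at 0.0836, Dync1li1 at 0.102 and Gtf3c1 at 0.109. For Pycr1 they were Il9r, an interleukin receptor, at 0.192, Tnfrsf13b, the receptor TACI of B cells, at 0.228 and Spib, a transcription factor of B cells, at 0.242. For Slc7a11 they were Tmem154 at 0.265, Dsc3, a desmocollin, at 0.297 and Cd4, the T helper cell coreceptor, at 0.313. Log2 CPM carry a prior count of 2, which shrinks differences from areas with few reads. Pycr1 and Slc7a11 held 1 to 4 reads per normal area, so likeness to them says little about the size of a change. By the edgeR fit Dsc3 rose by 9.04 on the log2 scale, against 5.32 for Slc7a11, 4.74 for Tmem154 and 4.72 for Cd4. A shared cause was not tested.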

How the data were processed

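RNA was poly(A)-selected and sequenced in 9 libraries, per the labels' protocols. Per the submitters' processing notes, STAR 2.3, HTSeq and edgeR were used with the build mm9. Annotation, strand setting and filters: not given in the sources used here, and the kit named is not strand-specific. The values the authors deposited are raw counts for each gene and library, checked to be whole numbers. Symbols matched 14026 of 14052 identifiers.

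In R 4.3.3 with edgeR 4.0.16, genes were kept by filterByExpr (minimum count 10, minimum total 15), scaled by TMM (factors 1.04 to 1.17 in tumour, 0.890 to 0.899 in normal areas) and tested with a quasi-likelihood model of group, with Benjamini-Hochberg adjustment over 7020 genes. CPM carry the TMM factors, and log2 CPM a prior count of 2. Standard errors are the log2 fold change divided by the root of the F statistic. A CPM mean is given ± its SD (5 tumour, 4 normal areas). The steps were also run on simulated data, in which a small set of genes changed by known folds, up and down alike. Here 74.6% of genes were called, so that run cannot judge the scaling of these libraries.

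The 4 genes and all lists were chosen with earlier results of these data known. Genes named were the 4, their fixed partners, and up to 3 called genes per list and direction with at least 1 CPM in the higher group. A few genes of the lists count in their totals but are not reported here by name. Insr, Igf1r, Akt1, Lamtor1, Sesn2, Atf3, Aldh4a1, Cdo1, Mapkap1, Tti1, Tti2, Hmox1, Keap1, Nqo1, Slc38a1, Eif2ak1, Slc22a13 and Gpx4 were named after their values were seen, and the motifs were chosen then too. So were Tbc1d7, Prkaa1, Prkab1, Prkab2, Prkag1, Castor1, Lamtor3, Lamtor5, Laptm5 and Lyz2. Tried as alternatives were scaling by RLE, by upper quartile or by library size alone, dropping the filter or asking for 1 CPM in 4 libraries, limma-voom (limma 3.58.1), DESeq2 1.42.0, edgeR's exact test, the area letter as a covariate, R areas only, each area left out, and L4 and R5 left out. Promoter sequences are from RefSeq (GRCm38.p6), and GENCODE transcripts served only to find near copies.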

Additional observations from a re-analysis of the deposited data

Results flagged for a closer look

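In 170 groups (85 of the named genes, in tumour and in normal areas), 8 had an area far from the others of its group. Chance alone flags about 1 in 20 groups. None of the 8 was of Mtor, Pycr1, Psat1 or Slc7a11. Irs2 stood at 8.30 CPM in normal R2 against 4.54 to 5.05 CPM in the other normal areas. Prkag2 stood at 2.43 CPM in tumour R5 against 0.581 to 1.09 CPM in the other tumour areas. Gldc stood at 701 CPM in normal L1 against 798 to 802 CPM. Slc1a3 stood at 3.68 CPM in normal L1 against 2.43 to 2.59 CPM. Tsc1 stood at 125 CPM in normal L2 against 113 CPM in each of the others. Tsc2 stood at 101 CPM in tumour L4 against 110.4 to 112 CPM. Mapkap1 stood at 5.37 CPM in tumour R4 against 3.06 to 3.52 CPM, and Tti1 at 2.81 CPM in normal L1 against 5.32 to 5.48 CPM.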

How the results depend on the processing

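Mtor, Pycr1 and Slc7a11 kept their direction and call under all 20 alternatives, with log2 fold changes of -1.11 to -0.74, 5.31 to 5.96 and 5.11 to 5.61, and Psat1 under 19 of them. Psat1 was not called with library size alone (-0.30), and that setting took the median of all genes from 0.059 to 0.35 and the share of higher genes among the calls from 52.7% to 68.9%. With 1 area left out the values ran from -1.09 to -0.91 for Mtor, 5.34 to 5.96 for Pycr1, -0.67 to -0.49 for Psat1 and 5.15 to 5.48 for Slc7a11. The 2760 higher and 2476 lower genes stayed within 1.5 times under all alternatives, at 2425 to 3735 and 1689 to 2623. Of the 81 other genes checked in this way, 64 kept direction and call throughout. Rheb read 0.033 with upper quartile factors, 0.26 with library size alone, 0.036 without L4 and R5, and -0.051 to 0.00067 with 1 area left out. Slc3a2 read 0.054 with upper quartile factors, 0.29 with library size alone, 0.019 with the area letter, and -0.072 to 0.042 with 1 area left out. Sesn2 read 0.22 with library size alone, and Tti2 -0.17 within the R areas. Counts of lists moved by over 1.5 times with library size alone: mTOR subunits had 1 higher rather than 0, lysosomal sensing 10 higher and 4 lower rather than 6 and 7, the ATF4 list 2 lower rather than 4, cystine and glutathione 7 higher and 5 lower rather than 4 and 9, glutamine metabolism 3 lower rather than 6, and branched-chain breakdown 4 higher and 5 lower rather than 1 and 8. Within the R areas lysosomal sensing had 3 higher. The cause of these shifts was not tested. No paired analysis was possible, because the groups differ in genotype and carry different numbers. The 1 area name that they share, R2, does not make a pair. Depth limits Pycr1 and Slc7a11 in normal cortex, where each area held 1 to 4 reads.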

Other observations

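Of 13 tested genes of glutamine, glutamate and aspartate metabolism 5 (38.5%) rose and 6 (46.2%) fell. Over all genes 39.3% rose and 35.3% fell. The median log2 fold change of the list was -0.086. Glul, which makes glutamine, fell from 3017 to 1431 CPM (log2 -1.08 ± 0.08), Aspa, which cleaves N-acetylaspartate, from 167 to 100.1 CPM (log2 -0.74 ± 0.18) and Got2, the mitochondrial aspartate aminotransferase, from 734 to 471 CPM (log2 -0.64 ± 0.08). Aspg, an asparaginase, rose from 43.03 to 99.6 CPM (log2 1.21 ± 0.15) and Cad, which starts pyrimidine synthesis, from 6.53 to 14.02 CPM (log2 1.09 ± 0.16).

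Of 15 tested genes of branched-chain amino acid breakdown 1 (6.67%) rose and 8 (53.3%) fell, against 39.3% and 35.3% of all genes. The median log2 fold change was -0.30. Bckdk, the kinase that switches off the branched-chain dehydrogenase, rose from 86.6 to 126 CPM (log2 0.54 ± 0.06). Ivd, of leucine breakdown, fell from 905 to 381 CPM (log2 -1.25 ± 0.11), Mccc1, of the same route, from 93.8 to 41.6 CPM (log2 -1.17 ± 0.14), and Aldh6a1, of valine breakdown, from 4797 to 2147 CPM (log2 -1.16 ± 0.15).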
